A study of Oryctolagus cuniculus with 35 samples.

Results

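The lungs described here came from 7 New Zealand rabbits with pneumococcal pneumonia and adverse mechanical ventilation that received both ceftaroline and mesenchymal stem cells (MSC), and from 7 healthy New Zealand rabbits. They make up 14 of the 35 lung RNA-seq libraries of the series and were chosen by their group labels alone. The comparison asks which genes still differed from healthy lung after both treatments. The combined-treatment rabbits received intramuscular ceftaroline-fosamil, a cephalosporin antibiotic, at 20 mg per kg, and intravenous MSC from human umbilical cord at 3000000 cells per kg. Both were given 4 h after the bacteria were instilled, and lung was taken at 24 h, or at death where that came earlier. Further groups of 7 rabbits with the same pneumonia and ventilation received ceftaroline alone (20 mg per kg), MSC alone (the same cell dose) or NaCl as the untreated control. The labels of the healthy rabbits name NaCl as their treatment and neither infection nor ventilation. Infection, ventilation and both treatments therefore all separate the combined-treatment lungs from the healthy ones and cannot be told apart in this comparison. The labels do not name the rabbits that died early, and whether any reads came from the human cells was not tested.

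Pneumococci that reach the airspaces are met by alveolar macrophages and epithelium, which release cytokines and chemokines that call neutrophils in from the blood. The capillary endothelium becomes adhesive and leaky, and forceful ventilation adds mechanical strain to the alveolar wall. That wall is built of thin type I cells, which form the gas exchange surface, and of type II cells, which make surfactant and can replace type I cells.

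The libraries held 11137017 to 18271138 reads on genes in the combined-treatment lungs and 7567008 to 12794413 in the healthy lungs, and each of the 35 libraries had at least 1 read in 11104 to 12017 genes. All values below are normalized reads, which are whole reads put on 1 scale over the 35 libraries. A fold change is given on the log2 scale of normalized reads plus 1, as combined treatment minus healthy. The lung markers SFTPB, a surfactant protein, and AGER, a type I cell receptor, were present in all 14 libraries. SFTPC, SFTPD, ABCA3, SCGB1A1, FOXJ1 and CLDN5 were listed at 0 in every library, as were 10217 of the 23669 genes in the tables, 6140 of them with a symbol, so these markers give no check. All 7 healthy libraries carry the mark S00 in their labels and 5 of them a title ending (PD or PG), while no combined-treatment library carries either. The mark and the group cannot be told apart. With the 2 healthy lungs that lack a title ending as the only comparison, 79 genes passed the test (48 higher and 31 lower). Of the genes named below, SFN, CSN2, PSMD14, MCM4, ADAMTS9 and TEK were among the 79. SFN and CSN2 had entered the test through the combined-treatment lungs. With the 5 healthy lungs that have an ending, 3251 passed.

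The 7 combined-treatment lungs lay at unequal distances from healthy lung. The root mean square log2 distance from the healthy mean over the genes tested was 1.41, 1.54, 0.53, 1.20, 0.75, 0.64 and 1.17 in combined-treatment lungs 1 to 7. The healthy lungs, each measured against the other 6, lay between 0.42 and 0.72. Lungs 3 and 6 thus fell inside the healthy span and lung 5 just above it, and lungs 1, 2, 4 and 7 lay well beyond it. The mean distance was 1.03 ± 0.39 in the combined-treatment lungs and 0.52 ± 0.11 in the healthy lungs (SD, n = 7 each; exact permutation test, two-sided, p = 0.00524). The combined-treatment lungs also differed more from each other, with a distance from the rest of their own group of 0.74 ± 0.13 against 0.52 ± 0.11 in healthy lungs (SD, n = 7 each; exact permutation test, two-sided, p = 0.00583). The same distance from healthy averaged 1.33 ± 0.33 with ceftaroline alone, 1.27 ± 0.27 with MSC alone and 1.48 ± 0.13 with NaCl (SD, n = 7 each).

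**Figure D1:**
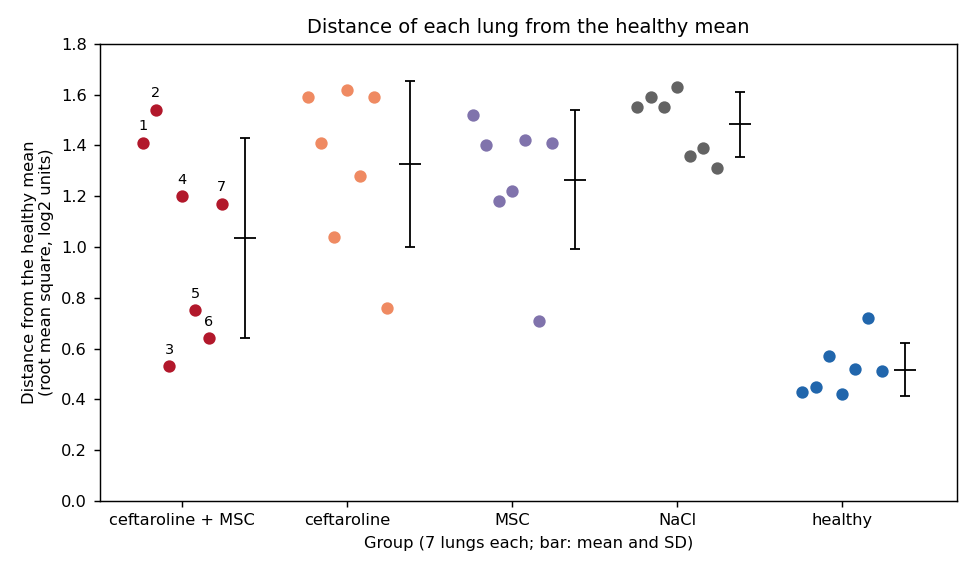
Root mean square log2 distance of each lung from the healthy mean, over the genes tested between combined treatment and healthy; points are lungs (combined-treatment lungs numbered), bars mean and SD of 7. Combined-treatment lungs spread from 0.53 to 1.54, while healthy lungs lie between 0.42 and 0.72 and NaCl lungs between 1.31 and 1.63.

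Counted gene by gene, the combined-treatment lungs differed in how much of their expression lay outside the range of the 7 healthy lungs. In lung 2, 34.1% of the genes tested lay above the highest healthy lung and 31.2% below the lowest. In lung 3, the nearest to healthy, the shares were 14.2% and 10.6%. The share outside the range in either direction was 63.1, 65.3, 24.8, 57.9, 41.6, 35.2 and 57.7% in lungs 1 to 7, against 65.0 to 69.5% in the 7 NaCl lungs. A lung that does not differ from healthy also has values outside such a range. To measure that, each healthy lung was set against the other 6, and the other lungs against the same sets of 6 healthy lungs. The share outside was then 65.4, 67.4, 28.4, 60.3, 44.8, 38.5 and 60.2% in combined-treatment lungs 1 to 7, against 67.1 to 71.4% in NaCl lungs and 14.9 to 53.2% in healthy lungs. Lungs 3, 5 and 6 thus lay inside the healthy span by this measure, and lungs 1, 2, 4 and 7 above it. The highest healthy value was that of lung 6, and the other 6 healthy lungs lay at 14.9 to 33.4%, a span that held combined-treatment lung 3 but not lungs 5 and 6.

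**Figure D2:**
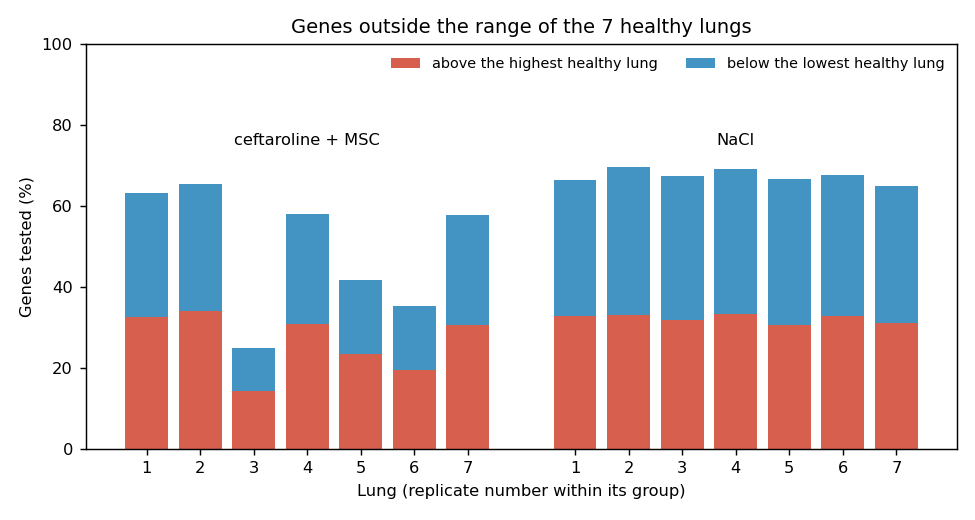
Percent of the genes tested whose value lies above the highest (red) or below the lowest (blue) of the 7 healthy lungs, for each combined-treatment lung (left) and each NaCl lung (right). Combined-treatment lungs range from 24.8 to 65.3%, NaCl lungs from 65.0 to 69.5%; healthy lungs, measured against the other 6, held 14.9 to 53.2%.

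Of 9811 genes tested, 4099 differed between combined treatment and healthy (41.8%; limma, Benjamini-Hochberg adjusted p under 0.05). Of these, 2244 were higher (22.9%) and 1855 lower (18.9%) in the combined-treatment lungs, and 1656 changed at least 2-fold (795 higher, 861 lower). Which direction held more calls depended on the scaling: with TMM over the 2 groups alone 2003 were higher and 2049 lower, and with DESeq2 size factors 2017 and 2035. The median log2 fold change of all genes tested was 0.04. Counts in the gene lists below are to be read beside the 22.9% higher and 18.9% lower of all genes tested. For 578 genes (5.89%) every combined-treatment lung lay above every healthy lung, and for 397 genes (4.05%) every one lay below. With single libraries left out, the count ran between 3225 (without combined-treatment lung 1) and 4618 (without combined-treatment lung 3). On the whole reads, edgeR called 3875 genes and DESeq2 4345.

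Among the largest rises without overlap between the groups were chemokines, enzymes and plasma proteins. SFN (ENSOCUG00000006405), the cell cycle brake 14-3-3 sigma, ran from 114 to 580 normalized reads in combined-treatment lungs (median 222), against 3.07 to 14.3 in healthy lungs (median 4.58). Even combined-treatment lung 3, the lowest, held far more SFN reads than any healthy lung. CSN2 (ENSOCUG00000009494), the milk protein beta-casein, likewise stood well apart in every lung. Its values were 91.7 to 400 normalized reads in combined-treatment lungs (median 234) and 1.54 to 19.3 in healthy lungs (median 4.17). Most healthy lungs lay below 10 normalized reads for SFN and for CSN2. Both genes thus entered the test through the combined-treatment lungs, and no fold change is given for them. CCL2, the chemokine that attracts monocytes, rose by 5.46 ± 0.74 (SE) on the log2 scale (adjusted p = 3.6e-04), with 512 to 27876 normalized reads in combined-treatment lungs against 71.5 to 238 in healthy lungs. ARG1, the enzyme that splits arginine to ornithine and urea, was at 29240, 16860, 768, 9647, 579, 636 and 18361 normalized reads in combined-treatment lungs 1 to 7, against 71.0 to 206 in healthy lungs. Its rise was 5.08 ± 0.89 (adjusted p = 0.00109), and lungs 3, 5 and 6 held far less of it than the other 4. The others of the 12 largest rises were CA12, a carbonic anhydrase (5.40), the chemokine CXCL10 (4.98), FGFBP1, a carrier of fibroblast growth factors (4.89), CXCL8, the main neutrophil chemokine (4.73), HPX, the heme carrier hemopexin (4.71), GBP1, an interferon-induced GTPase (4.65), the apolipoprotein APOA5 (4.45) and XDH, which makes uric acid (4.07).

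The largest falls took in water and acid transport, hedgehog and vascular growth signals and matrix ligands. MYOC, a secreted glycoprotein, was at 6.00 to 186 normalized reads in combined-treatment lungs (median 32.8), against 329 to 3599 in healthy lungs (median 1080), and had a log2 fold change of -5.14 ± 0.64 (adjusted p = 2.6e-04). AQP8, a channel for water and hydrogen peroxide, was at 5.11, 19.2, 176, 5.18, 35.1, 37.9 and 5.13 normalized reads in combined-treatment lungs 1 to 7 and at 476 to 1318 in healthy lungs. Its log2 fold change was -5.13 ± 0.66 (adjusted p = 2.9e-04), and it was low in all 7 combined-treatment lungs. IHH, the ligand Indian hedgehog, changed by -4.62, and the carbonic anhydrase CA14 by -4.21. EDIL3, an endothelial ligand of integrins that limits leukocyte adhesion, changed by -3.64, and PHEX, a membrane peptidase, by -3.25. VEGFD, a growth factor of lymphatic vessels, had 25.2 to 469 normalized reads in combined-treatment lungs and 600 to 874 in healthy lungs (-3.10 ± 0.70, adjusted p = 0.00420). NPNT, an integrin ligand of the alveolar basement membrane, ran from 711 to 12155 against 16469 to 30287 in healthy lungs (-3.06 ± 0.62, adjusted p = 0.00248). The methyltransferase METTL7A (-3.36), ITPRID1 (-3.09), the G protein regulator RGS6 (-3.05) and the caveolar coat protein CAVIN2 (-3.04) complete the 12 largest falls. None of these 24 genes lost its call with any 1 of the 14 libraries left out. They were chosen for large differences without overlap in the same lungs, so this is no separate support. Of the 24, only SFN and CSN2 were among the 79 genes that passed with the 2 healthy lungs that lack a title ending.

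**Figure D3:**
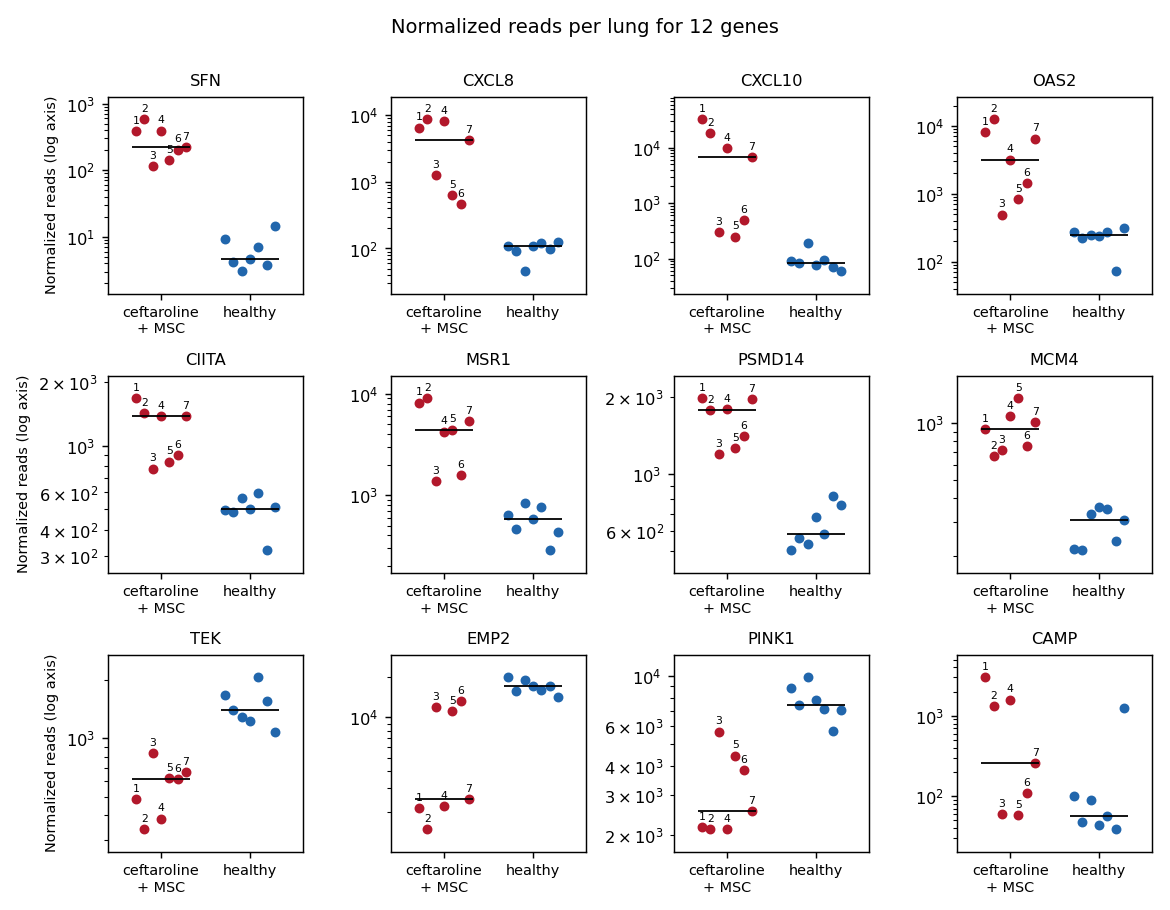
Normalized reads (log axis) of 12 genes in each combined-treatment lung (red, numbered, left) and each healthy lung (blue, right); bars are group medians. For every gene shown except CAMP all 7 combined-treatment lungs lie on one side of the healthy lungs, and for CAMP the groups overlap.

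Cytokine and chemokine transcripts remained above healthy levels, by very different amounts from lung to lung. Of the 15 listed members tested, 13 rose and none fell, and 7 of them did not overlap with healthy; their median log2 fold change was 3.49, beside 0.04 for all genes tested. Measured as the list's median difference from healthy, combined-treatment lungs 1, 2, 4 and 7 stood at 6.19, 5.11, 5.48 and 3.92 and the other lungs between 0.98 and 1.27, while single healthy lungs lay between -0.22 and 0.25. Every combined-treatment lung was thus above every healthy lung, with lungs 3, 5 and 6 at the low end. CXCL8 (ENSOCUG00000011835) was at 6503, 8679, 1250, 8141, 638, 467 and 4244 normalized reads in the combined-treatment lungs, against 46.1 to 126 in the healthy lungs (4.73 ± 0.63, adjusted p = 3.4e-04). CXCL10, which draws T cells, was at 32403, 18460, 303, 9843, 250, 499 and 6734 normalized reads, against 60.1 to 195 in healthy lungs (4.98 ± 1.02, adjusted p = 0.00262). The related chemokines CXCL9 and CXCL11 rose by 4.13 and 6.02, CCL4 by 4.83 and the cytokine IL1A by 4.06, but of these IL1A alone did not overlap with healthy. TNF, an early alarm cytokine, rose by 3.35 ± 0.84 (adjusted p = 0.00689), with 19.4 normalized reads in lung 6, inside the healthy range of 12.6 to 27.5. IL1B, made by activated macrophages, rose by 2.25 ± 0.72 (adjusted p = 0.0223), with lungs 5 and 6 at 212 and 199 normalized reads, inside the healthy range of 189 to 358. CCL20, a chemokine for dendritic and T cells, showed a smaller rise in every lung, with 133 to 363 normalized reads against 60.1 to 128 in healthy lungs (1.13 ± 0.22, adjusted p = 0.00199).

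Some cytokines reached 10 normalized reads in fewer than 7 of the 14 libraries, so they did not enter the test and are given as values. IL6, which drives the acute phase response, was at 5142, 1145, 18.6, 2625, 28.0, 6.75 and 755 normalized reads in combined-treatment lungs 1 to 7, against 0 to 6.27 in healthy lungs. CSF3, which mobilizes neutrophils, was at 1041, 729, 3.11, 2650, 3.90, 7.59 and 480, against 0 to 4.61. The anti-inflammatory cytokine IL10 was at 4.66 to 57.0 (median 19.4), against 0 to 6.14. For IL6 and CSF3 lungs 3, 5 and 6 were lower than lungs 1, 2, 4 and 7.

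The brakes and amplifiers of NF-kB, the transcription factor behind many of these cytokines, followed in part. Of 12 members tested, 10 rose (median 1.14) and 3 of them did not overlap. NFKBIZ, a nuclear co-regulator, had 470 to 2337 normalized reads in combined-treatment lungs and 150 to 291 in healthy lungs (2.29 ± 0.39, adjusted p = 9.7e-04). The subunit REL rose by 1.67 ± 0.36 (adjusted p = 0.00325). TNFAIP3, the deubiquitinase A20, did not pass (1.42 ± 0.63, adjusted p = 0.0792), nor did the inhibitor NFKBIA (0.34 ± 0.44, adjusted p = 0.550). Both were above every healthy lung in combined-treatment lungs 1, 2, 4 and 7, and below every healthy lung in lungs 3 and 5. Among innate sensors 6 of 10 rose and 1 fell (median 1.02). TLR5, the flagellin receptor, rose in every lung (80.0 to 232 normalized reads against 40.1 to 79.8 in healthy lungs; 1.19 ± 0.23, adjusted p = 0.00192). TLR1, which pairs with TLR2 on bacterial lipoproteins, rose by 1.72 ± 0.38 (adjusted p = 0.00367), and CLEC7A, the beta-glucan receptor dectin-1, was the member that fell (-0.76 ± 0.25, adjusted p = 0.0228).

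Interferon-induced genes were higher in the combined-treatment lungs. Of 12 tested, 11 rose and 8 did not overlap with healthy, with a median of 2.19. OAS2, an antiviral enzyme, had 491 to 12493 normalized reads against 72.8 to 315 in healthy lungs (3.67 ± 0.65, adjusted p = 0.00112). IRF1 rose by 2.50 ± 0.63 (adjusted p = 0.00726) but overlapped, with lung 5 at 628 normalized reads beside a healthy maximum of 636. The list's median difference from healthy was 3.59, 3.68, 0.63, 2.43, 0.83, 1.10 and 2.87 in lungs 1 to 7.

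Macrophage transcripts were higher in the combined-treatment lungs than in healthy ones. In whole-lung RNA, fewer or more cells of a type and less or more RNA per cell cannot be told apart, which holds for every cell type below. Of 16 monocyte and macrophage markers tested, 12 rose and none fell (median 1.35; 1 fell without combined-treatment lung 5), and their summed level was 14458 to 50791 normalized reads against 7363 to 13007 in healthy lungs, without overlap. MSR1 (ENSOCUG00000014197), a scavenger receptor, was at 8195, 9006, 1378, 4243, 4430, 1582 and 5372 normalized reads in lungs 1 to 7 and at 287 to 842 in healthy lungs (2.88 ± 0.41, adjusted p = 4.3e-04). CSF1R, the receptor that keeps macrophages alive, rose (adjusted p = 0.00130), as did the mannose receptor MRC1 (1.05 ± 0.20, adjusted p = 0.00155), both in every lung. CD163, which clears hemoglobin, rose by 2.64 ± 0.61 (adjusted p = 0.00453), with 59.8 to 728 normalized reads against 5.15 to 99.8 in healthy lungs. MARCO, a receptor of alveolar macrophages for bacteria, rose by 3.29 ± 1.02 (adjusted p = 0.0195) despite one healthy lung, number 7, at 1140 normalized reads. Median differences of this list were 1.95, 2.22, 0.55, 1.60, 1.00, 0.72 and 1.31 in lungs 1 to 7, and healthy lungs lay between -0.43 and 0.45.

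Complement and antigen presentation genes, which macrophages also make, were raised as well. Of 11 complement genes 7 rose and 1 fell (median 1.17). C1QC, C1QB and C1QA, the chains of the starter molecule of the classical pathway, rose by 1.76 ± 0.45, 2.27 ± 0.59 and 1.41 ± 0.39 (adjusted p = 0.00794, 0.00870 and 0.0115), and all 3 are also on the macrophage list. CD59, which shields cells from complement pores, fell in every combined-treatment lung (51.1 to 369 normalized reads against 384 to 949 in healthy lungs; -1.69 ± 0.42, adjusted p = 0.00658). In the MHC class II list, 5 of 9 rose and none fell (median 0.48). CIITA, the master switch of class II genes, was at 1669, 1417, 777, 1378, 839, 901 and 1382 normalized reads in combined-treatment lungs and 321 to 598 in healthy lungs (1.23 ± 0.19, adjusted p = 6.1e-04). RLA-DMB, a rabbit chain of the class II peptide loader, had 4307 to 10849 against 1425 to 3468 in healthy lungs (1.48 ± 0.24, adjusted p = 7.7e-04). CD74, the invariant chain, did not pass (0.34 ± 0.20, adjusted p = 0.182), with 46879 to 75271 normalized reads against 24114 to 68028. Summed macrophage markers were also higher than in healthy lungs, and the part of macrophages in these changes was not tested.

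Neutrophil transcripts gave no such common picture. Of 10 members tested 3 rose, beside 22.9% of all genes tested, and the median was 1.40. The count was 2 without combined-treatment lung 1 and 6 without combined-treatment lung 5. As a list, the median difference was 2.87, 3.86, 0.24, 2.58, -0.57, -0.21 and 1.44 in combined-treatment lungs 1 to 7, and -0.67 to 1.66 in healthy lungs. Lungs 3, 5 and 6 were thus inside the healthy span, and 1 healthy lung, number 7, was as high as combined-treatment lung 7. CAMP, the antimicrobial peptide cathelicidin, was at 2998, 1319, 59.0, 1590, 58.5, 110 and 255 normalized reads, against 38.9 to 98.9 in healthy lungs 1 to 6 and 1265 in healthy lung 7 (1.92 ± 1.00, adjusted p = 0.131). The summed neutrophil markers were at 20824 to 577584 normalized reads in combined-treatment lungs and 18448 to 119383 in healthy lungs. S100A8, a calprotectin subunit, did not pass (1.59 ± 0.78, adjusted p = 0.111), nor did LTF, the iron binder lactoferrin (1.30 ± 1.00, adjusted p = 0.303). The members that rose included NCF4, a subunit of the NADPH oxidase, with 634 to 2938 normalized reads against 302 to 589 in healthy lungs (1.35 ± 0.32, adjusted p = 0.00537). CSF3R, FPR1, MMP9 and LCN2 were listed at 0.

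Lymphoid and mast cell lists showed few calls, with medians of 0.34 for T and NK cells, 0.12 for B and plasma cells and 0.27 for mast cells and eosinophils. The first 2 medians turned to -0.40 and -0.63 with only the healthy lungs that lack a title ending, and that of B and plasma cells to -0.27 with edgeR on the whole reads. CD247, the zeta chain of the T cell receptor, fell in all 7 combined-treatment lungs, at 76.8 to 336 normalized reads against 673 to 961 in healthy lungs (-2.07 ± 0.27, adjusted p = 2.9e-04). CCR7, a homing receptor of T and dendritic cells, was the 1 T and NK list member of 9 that rose (1.56 ± 0.51, adjusted p = 0.0258). It lost that call without combined-treatment lung 1, 2 or 4 or healthy lung 6 (highest adjusted p 0.0573), and 2 members rose without combined-treatment lung 5. In the B and plasma cell list of 9, BLK was higher (0.40 ± 0.15, adjusted p = 0.0460) and TNFRSF17 lower (-0.81 ± 0.31, adjusted p = 0.0451), and each lost its call without any 1 of 8 or more libraries, with adjusted p up to 0.0955 and 0.0909, healthy lung 1 among them for both. Without healthy lung 6, 2 members of that list were lower. Of 6 mast cell and eosinophil markers, GATA2, a transcription factor also found in endothelium, fell (-1.44 ± 0.26, adjusted p = 0.00121), and 1 member rose without combined-treatment lung 3.

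Endothelial genes, taken as a list, were lower by a similar amount in all 7 combined-treatment lungs. Of 17 members tested 11 fell and 3 rose (median -0.65), and 4 of those that fell did not overlap with healthy. The list's median difference was -0.73, -0.77, -0.47, -0.59, -0.58, -0.66 and -0.72 in combined-treatment lungs 1 to 7, against -0.28 to 0.20 in healthy lungs, so that all 7 lay below every healthy lung within a narrow span. TEK (ENSOCUG00000017666), the receptor Tie2 that keeps vessels quiescent, was at 487, 340, 838, 385, 623, 616 and 667 normalized reads, against 1071 to 2057 in healthy lungs (-1.41 ± 0.20, adjusted p = 4.4e-04). KDR, the main receptor of vascular endothelial growth factor, was at 1151 to 2625 against 2975 to 4813 (-1.24 ± 0.21, adjusted p = 9.2e-04). EMCN, an anti-adhesive sialomucin of capillaries, changed by -1.68 ± 0.32 (adjusted p = 0.00179), and ESAM, an adhesion molecule of endothelial junctions, by -0.65 ± 0.14 (adjusted p = 0.00319). VWF, which tethers platelets, fell by 1.11 (SE 0.27; adjusted p = 0.00619). The 3 members that rose, SELP, SELE and VCAM1 (0.74), are adhesion molecules for leukocytes. SELP, or P-selectin, was at 5956, 4532, 675, 6333, 544, 1058 and 5331 normalized reads in combined-treatment lungs and 217 to 804 in healthy lungs (2.73 ± 0.59, adjusted p = 0.00321), and SELE, or E-selectin, rose by 2.22 ± 0.66 (adjusted p = 0.0155). The sum of the endothelial markers was 28805 to 39569 normalized reads against 36657 to 49516 in healthy lungs. Of 5 lymphatic markers (median -0.45), MMRN1, a vessel wall glycoprotein, fell (-1.17 ± 0.23, adjusted p = 0.00228).

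Coagulation and fibrinolysis genes were mostly raised, with 5 of 9 higher and 2 lower (median 0.83). PLAU, the plasminogen activator urokinase, had 623 to 1194 normalized reads in combined-treatment lungs and 317 to 518 in healthy lungs (0.95 ± 0.17, adjusted p = 0.00128). ANXA2, a surface receptor for plasminogen, rose by 0.90 ± 0.14 (adjusted p = 7.2e-04) and PROCR, the endothelial protein C receptor, by 0.83 ± 0.14 (adjusted p = 9.6e-04), both in every lung. PROS1, the anticoagulant protein S, fell by 2.19 (SE 0.52; adjusted p = 0.00545), with 96.0 to 1340 normalized reads against 1661 to 2740. Genes that build and cut hyaluronan and proteoglycans rose in 9 of 15 cases and fell in 1 (median 1.07). ADAMTS9 (ENSOCUG00000000109), a proteoglycan-cutting protease, was at 993, 1085, 293, 1973, 362, 487 and 780 normalized reads against 30.9 to 125 in healthy lungs (3.63 ± 0.43, adjusted p = 2.1e-04). HYAL1, a hyaluronidase, rose by 1.07 ± 0.17 (adjusted p = 7.9e-04), and HAS2, which makes hyaluronan, by 2.70 ± 0.46 (adjusted p = 9.5e-04). ADAMTS4 rose by 4.75 ± 1.09 (adjusted p = 0.00441) but ranged widely, at 6745, 7504, 62.9, 12101, 345, 87.7 and 1503 normalized reads against 22.9 to 84.5, so that lung 3 overlapped with healthy. TNFAIP6, which cross-links hyaluronan and dampens inflammation, rose by 3.34 ± 0.65 (adjusted p = 0.00196).

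Among genes of resolution and repair, 11 of 14 rose and 1 fell (median 1.41). IL13RA2, a decoy receptor for IL-13, was at 835, 193, 690, 538, 964, 629 and 1004 normalized reads in combined-treatment lungs and 53.9 to 186 in healthy lungs (2.70 ± 0.36, adjusted p = 3.2e-04). Lungs 3, 5 and 6 were not the low ones here. HBEGF, an epithelial growth factor, rose by 1.52 ± 0.23 (adjusted p = 5.6e-04), and HGF, the hepatocyte growth factor that acts on alveolar epithelium, fell by 0.85 (SE 0.22; adjusted p = 0.00880). In the eicosanoid list 3 of 8 rose and 2 fell (median 0.16), beside 22.9% and 18.9% of all genes tested. PTGER2, a receptor for prostaglandin E2, was at 10.2 to 27.9 normalized reads in combined-treatment lungs and 64.2 to 106 in healthy lungs (-2.15 ± 0.24, adjusted p = 1.5e-04), and HPGD, which breaks prostaglandins down, changed by -2.64 ± 0.53 (adjusted p = 0.00217). PTGS2, the inducible cyclooxygenase, rose by 1.88 ± 0.53 (adjusted p = 0.0128).

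Alveolar epithelial genes were lower in some combined-treatment lungs and near healthy levels in others. Of 14 type I markers tested 8 fell and none rose (median -1.34). The list's median difference was -2.32, -2.93, -0.38, -2.11, -0.27, -0.21 and -1.80 in combined-treatment lungs 1 to 7, while healthy lungs lay between -0.28 and 0.26. Lungs 5 and 6 thus lay within the healthy span, and lung 3 just outside it. EMP2, a membrane protein of type I cells, was at 2133, 1494, 11965, 2216, 11190, 13275 and 2477 normalized reads, against 14249 to 19747 in healthy lungs (-1.95 ± 0.48, adjusted p = 0.00635), so that even lung 6 was below every healthy lung. CAV1, the coat protein of caveolae, changed by -1.18 ± 0.30 (adjusted p = 0.00742) and AGER by -1.52 ± 0.40 (adjusted p = 0.00884), with lungs 3 and 6 at 69469 and 71064 normalized reads of AGER inside the healthy range of 68374 to 126969. The summed type I markers were at 32868 to 202881 against 200264 to 244576 in healthy lungs.

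The 4 type II markers tested had a median of -1.10, and 1 of them passed. With edgeR on the whole reads 0 passed, and the median was -0.69. SLC34A2, the phosphate transporter of type II cells, was at 1460, 636, 19941, 2561, 18921, 19980 and 2978 normalized reads in combined-treatment lungs and 14790 to 29327 in healthy lungs (-2.04 ± 0.70, adjusted p = 0.0316). The call was lost without combined-treatment lung 1, 2, 4 or 7 or healthy lung 1 or 7 (adjusted p up to 0.0693), and without combined-treatment lung 3 the count of type II calls was 3. SFTPB was at 40796, 12183, 125742, 37362, 140105, 128725 and 53544 against 89748 to 159244 (-1.15 ± 0.46, adjusted p = 0.0563). For both genes lungs 3, 5 and 6 were within the healthy range and the other 4 below it. Ciliated cell genes, which move airway mucus, fell in 8 of 12 cases (median -1.31). That count was 5 without healthy lung 2 and 4 with edgeR on the whole reads. DNAH11, a motor of the cilium, fell by 1.76 (SE 0.46; adjusted p = 0.00884) and the ciliary protein CFAP43 by 1.26 (SE 0.35; adjusted p = 0.0117). The list's median difference was -2.86, -2.85, -0.05, 0.02, -1.44, -0.61 and -1.21 in lungs 1 to 7, against -0.55 to 0.74 in healthy lungs, so that lungs 3 and 4 lay within the healthy span. Of 8 secretory cell genes (median -0.86) 1 fell, or 2 without healthy lung 6, and 1 rose without combined-treatment lung 5. CYP4B1, a monooxygenase, fell in every lung (2548 to 25984 normalized reads against 43271 to 59816; -2.70 ± 0.49, adjusted p = 0.00129).

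Few salt and fluid transport genes of the alveolus passed, with 2 of 12 higher and 2 lower (median -0.25), which is no more than among all genes tested (22.9% higher and 18.9% lower). ATP1B3, a subunit of the sodium pump that drives fluid out of the airspace, rose in every lung (4033 to 8010 normalized reads against 2485 to 3819; 1.09 ± 0.16, adjusted p = 5.2e-04). SGK1, a kinase that raises sodium uptake, fell by 1.23 (SE 0.23; adjusted p = 0.00139). Of 13 fibroblast and matrix genes 6 fell and 2 rose (median -0.89). COL3A1, a fibrillar collagen, was higher, at 10769 to 20724 normalized reads against 5641 to 12299 in healthy lungs (0.85 ± 0.20, adjusted p = 0.00497). MFAP5, of elastic microfibrils, changed by -2.53 ± 0.57 (adjusted p = 0.00407), COL13A1, a membrane collagen of alveolar fibroblasts, by -0.92 ± 0.21 (adjusted p = 0.00473), and FGF10, a fibroblast signal to epithelium, by -1.14 ± 0.29 (adjusted p = 0.00696). Among 11 smooth muscle and pericyte genes 3 fell (median -0.39), beside 18.9% of all genes tested. ITGA8, an integrin chain, changed by -2.26 ± 0.53 (adjusted p = 0.00484) and MYLK, the kinase of myosin light chain, by -0.72 ± 0.20 (adjusted p = 0.0132).

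Wnt and BMP signalling genes, which guide alveolar repair, fell in 13 of 24 cases and rose in none (median -0.71). The count was 8 without healthy lung 2. BMPR2, the receptor whose loss causes pulmonary hypertension in humans, was at 348 to 543 normalized reads in combined-treatment lungs and 660 to 928 in healthy lungs (-0.91 ± 0.12, adjusted p = 3.1e-04). Its values in lungs 1 to 7 were 436, 382, 543, 348, 365, 414 and 481, with little spread. SFRP2, a secreted Wnt antagonist, changed by -2.42 ± 0.48 (adjusted p = 0.00219), the ligand BMP6 by -1.31 ± 0.26 (adjusted p = 0.00236) and WIF1, a Wnt inhibitor, by -2.14 ± 0.48 (adjusted p = 0.00404).

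**Figure D4:**
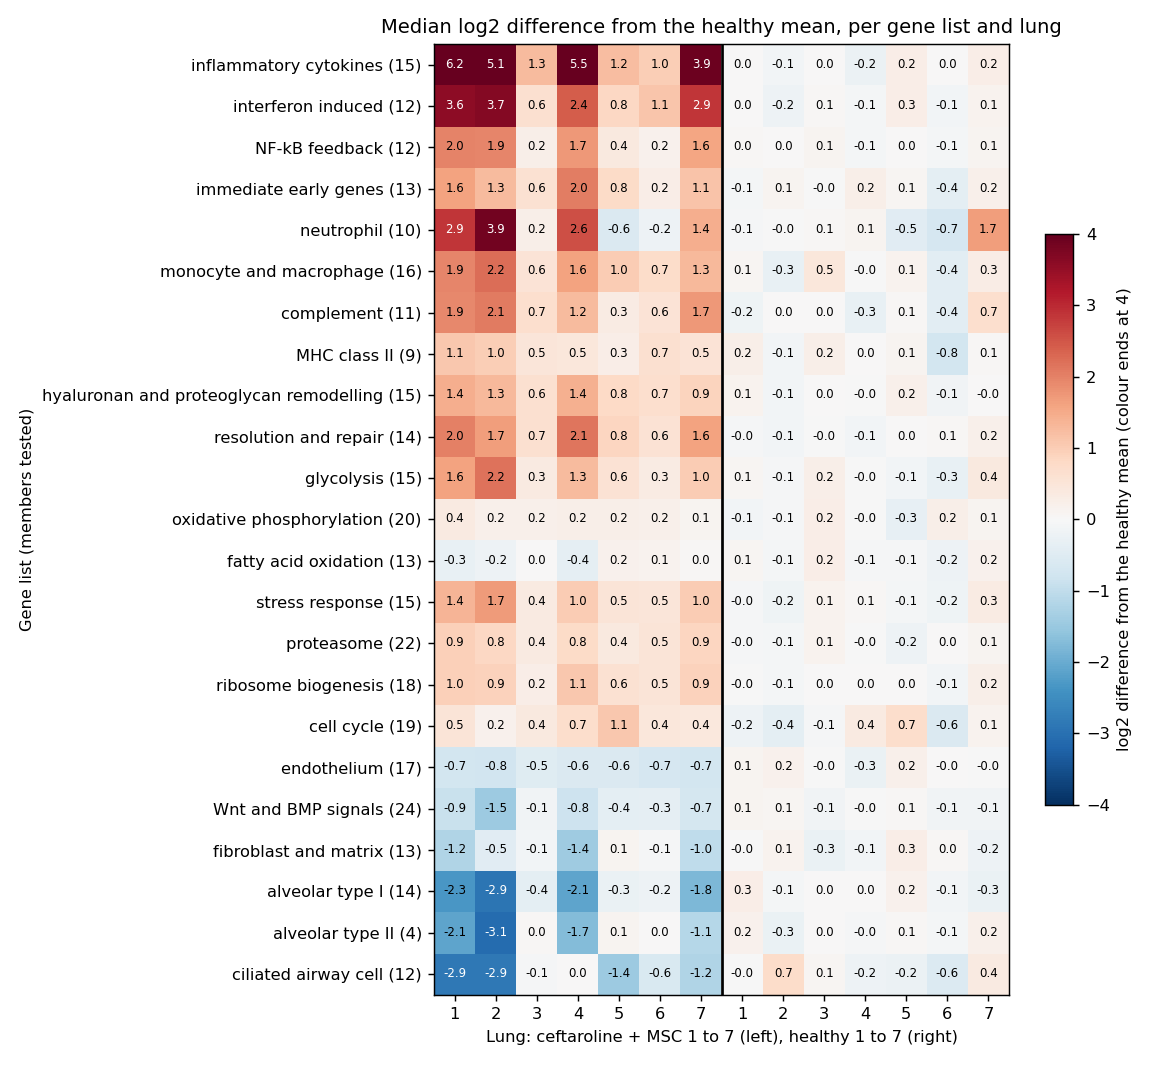
Median log2 difference from the healthy mean for 23 gene lists (rows, with the number of members tested) in each combined-treatment lung (left of the line) and each healthy lung (right). Cytokine, interferon, neutrophil and alveolar lists vary strongly between combined-treatment lungs, while the endothelial list lies between -0.77 and -0.47 in all 7.

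Genes of glucose breakdown were higher, and those of the respiratory chain differed by small amounts. Of 15 glycolysis genes 12 rose and none fell (median 1.03), 5 of them without overlap. GAPDH rose by 1.70 ± 0.27 (adjusted p = 7.5e-04), HK2, which traps glucose in the cell, by 1.03 ± 0.20 (adjusted p = 0.00173), and PKM, which makes pyruvate, by 2.00 ± 0.47 (adjusted p = 0.00517). PKM was at 51520, 69173, 7964, 33502, 9842, 7910 and 31652 normalized reads in combined-treatment lungs 1 to 7, against 3348 to 7669 in healthy lungs, so lungs 3, 5 and 6 were just above healthy. Of 20 oxidative phosphorylation genes 8 rose, by at most 0.54, and none fell (median 0.24). That count was 5 without combined-treatment lung 1 and 11 without healthy lung 6. ATP5F1A, of the ATP synthase, rose by 0.45 ± 0.10 (adjusted p = 0.00404), and NDUFS1, of complex I, by 0.50 ± 0.13 (adjusted p = 0.00775). In the citric acid cycle list 7 of 15 rose and 1 fell (median 0.35). MDH2, the mitochondrial malate dehydrogenase, rose in every lung (3957 to 4724 normalized reads against 1701 to 3666; 0.63 ± 0.15, adjusted p = 0.00481), and PDK2, a brake on pyruvate entry, fell in every lung (170 to 615 against 667 to 859; -1.26 ± 0.22, adjusted p = 0.00116).

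Fatty acid oxidation genes were close to healthy as a list, with 2 of 13 higher, 2 lower and a median of -0.08. Each of these counts ranged from 1 upward with single libraries left out, to 3 higher without combined-treatment lung 6 and 4 lower without combined-treatment lung 5. ACADVL, for very long chains, rose by 0.70 ± 0.15 (adjusted p = 0.00351). HADH was lower (-0.68 ± 0.24, adjusted p = 0.0324) but lost the call without any 1 of 7 libraries (combined-treatment lungs 1, 2 and 4 and healthy lungs 1, 3, 5 and 7; adjusted p up to 0.0707). Of the lipid and surfactant list 6 of 15 rose and 2 fell (median 0.34). HMGCS1, of cholesterol synthesis, rose in every lung (2.15 ± 0.26, adjusted p = 2.1e-04), as did the fatty acid binding protein FABP5 (1.97 ± 0.29, adjusted p = 5.4e-04), and the fatty acid importer CD36 fell (521 to 4110 normalized reads against 4334 to 6770; -2.11 ± 0.34, adjusted p = 7.7e-04).

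Mitochondrial quality control genes rose in 7 of 11 cases and fell in 1 (2 without combined-treatment lung 2; median 0.60). The one that fell was PINK1, a kinase that labels depolarized mitochondria for mitophagy. It was at 2176, 2127, 5688, 2129, 4456, 3848 and 2550 normalized reads in combined-treatment lungs and at 5725 to 9808 in healthy lungs (log2 fold change -1.31 ± 0.22, below the adjusted p threshold). Lung 3 was thus only just below the lowest healthy lung. HSPA9, the mitochondrial chaperone mortalin, rose by 0.99 ± 0.18 (adjusted p = 0.00130). Of 11 biogenesis genes 2 rose (median 0.19), beside 22.9% of all genes tested. The count was 4 without combined-treatment lung 3, and 1 gene fell without healthy lung 3. The 2 that rose were the coactivators PPRC1 (0.93 ± 0.16, adjusted p = 0.00116) and PPARGC1B (1.14 ± 0.30, adjusted p = 0.00905). Of 14 antioxidant genes 5 were higher and 4 lower (median 0.33), beside 22.9% and 18.9% of all genes tested. PRDX4, the peroxiredoxin of the endoplasmic reticulum, rose by 0.85 ± 0.12 (adjusted p = 3.6e-04) and HMOX1, which breaks heme down, by 1.06 ± 0.25 (adjusted p = 0.00579). PRDX6, which is rich in lung epithelium, fell to 3088 to 9076 normalized reads, against 10000 to 18848 in healthy lungs (-1.44 ± 0.25, adjusted p = 1.0e-03), and the extracellular enzyme SOD3 changed by -2.34 ± 0.50 (adjusted p = 0.00320). In the hypoxia list 5 of 17 rose (9 without combined-treatment lung 5) and 3 fell (median 0.25), beside 22.9% and 18.9% of all genes tested. HIF1A, the inducible oxygen sensor subunit, rose by 1.70 ± 0.38 (adjusted p = 0.00421), its endothelial relative EPAS1 fell by 1.11 (SE 0.28; adjusted p = 0.00736) and the MYC antagonist MXI1 fell by 0.99 (SE 0.20; adjusted p = 0.00213).

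Proteasome and ribosome assembly genes were higher in most members, and both list medians were above the healthy span in all 7 lungs. For ribosome assembly the margin was slight, with 0.25 in combined-treatment lung 3 beside 0.23 in healthy lung 7. Of 22 proteasome genes 20 rose and none fell (median 0.68), and 9 did not overlap with healthy. Across lungs 1 to 7 the median difference of the list was 0.95, 0.83, 0.37, 0.77, 0.40, 0.51 and 0.87 with combined treatment, against -0.19 to 0.13 in healthy lungs. PSMD14 (ENSOCUG00000001418), which strips ubiquitin from substrates, was at 1979, 1784, 1199, 1796, 1267, 1413 and 1970 normalized reads, against 506 to 824 in healthy lungs (1.35 ± 0.15, adjusted p = 1.7e-04). The scaffold PSMD1 rose by 0.70 ± 0.09 (adjusted p = 2.6e-04). PSMB8 and PSMB9, the interferon-inducible immunoproteasome subunits, rose by 1.67 ± 0.41 and 1.93 ± 0.55 (adjusted p = 0.00653 and 0.0128) but overlapped with healthy in lungs 3 and 5. Of 18 ribosome biogenesis genes 17 rose and none fell (median 0.73), 8 without overlap. GNL3, the nucleolar protein nucleostemin, had 949 to 1860 normalized reads against 560 to 798 (1.05 ± 0.14, adjusted p = 3.8e-04), and RRP12, of pre-ribosome export, rose by 1.29 ± 0.20 (adjusted p = 6.4e-04). Endoplasmic reticulum and amino acid stress genes rose in 9 of 15 cases (median 0.88), among them the stress sensor ATF6 (1.08 ± 0.15, adjusted p = 4.0e-04) and ASNS, which makes asparagine (1.70 ± 0.26, adjusted p = 5.6e-04). Of 9 heat shock genes 3 rose and 2 fell (median 0.19), beside 22.9% and 18.9% of all genes tested. HSPA4 rose by 0.91 ± 0.14 (adjusted p = 5.4e-04) and the small chaperone CRYAB fell by 1.13 (SE 0.21; adjusted p = 0.00157).

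MCM4, MCM6 and MCM2, of the DNA replication helicase, were higher in every combined-treatment lung than in any healthy lung. Of 19 cell cycle genes 8 rose and none fell (median 0.48), with a list median of 1.09 in combined-treatment lung 5 and 0.16 to 0.71 in the other lungs, against -0.57 to 0.69 in healthy lungs. MCM4 (ENSOCUG00000001710), was at 930, 670, 721, 1088, 1349, 759 and 1014 normalized reads in combined-treatment lungs, against 214 to 361 in healthy lungs (1.68 ± 0.18, adjusted p = 1.3e-04). Its partner MCM6 was at 530 to 1196 normalized reads against 233 to 526 in healthy lungs (adjusted p = 0.00109), and MCM2 rose by 1.46 ± 0.27 (adjusted p = 0.00141), with lung 5 the highest for both. In the p53 list 6 of 15 rose and 1 fell (median 0.65). The members that rose included SFN, given above as values, and the stress kinase PLK3 (3.44 ± 0.48, adjusted p = 4.0e-04). Of 12 apoptosis genes 7 rose and none fell (median 0.51), with the pore former BAK1 at 1.30 ± 0.35 (adjusted p = 0.0103). Of 13 immediate early genes 9 rose (median 1.22). FOSL1, a stress-induced partner of JUN, was at 11.6 to 156 normalized reads in combined-treatment lungs and at 0 to 5.37 in healthy lungs; it entered the test only through the combined-treatment lungs, so no fold change is given, although it is 1 of the 9. EGR2 rose by 1.57 ± 0.27 (adjusted p = 9.5e-04).

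In the circadian list 6 of 12 fell and 2 rose (median -0.54), and 1 rose without combined-treatment lung 1. CIART, a repressor of the clock, fell in every lung (747 to 1756 normalized reads against 2233 to 4036; -1.48 ± 0.19, adjusted p = 2.6e-04), and ARNTL, the core activator, by 0.56 (SE 0.15; adjusted p = 0.00956). The clock hour of sampling was not part of the labels used here. Of 13 glucocorticoid targets 4 fell and 2 rose (median 0.07), beside 18.9% and 22.9% of all genes tested. TSC22D3, a classic steroid-induced gene, fell in every lung (3952 to 8527 normalized reads against 9674 to 16421; -1.13 ± 0.20, adjusted p = 0.00118), and HSD11B1, which reactivates cortisone, rose by 1.55 ± 0.28 (adjusted p = 0.00120). Of 8 red cell genes 4 fell (1 without healthy lung 1) and 2 rose, with a median of -0.70. The 2 that rose, against the direction of the list median, were CA2 (1.32 ± 0.28, adjusted p = 0.00286) and GATA1 (1.69 ± 0.47, adjusted p = 0.0120). Of 3 striated muscle genes (median -1.11) RYR1 rose (0.80 ± 0.25, adjusted p = 0.0186) and RYR2 was lower (-1.11 ± 0.38, adjusted p = 0.0298), a call lost without any 1 of 5 libraries (combined-treatment lungs 1, 2 and 7 and healthy lungs 2 and 5; adjusted p up to 0.0639).

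How far treatment shifted these genes from the untreated state can be read beside the NaCl lungs. Against the same healthy lungs, the NaCl lungs differed in 5856 of 9777 genes (59.9%), 2770 higher (28.3%) and 3086 lower (31.6%). With libraries scaled by their total reads alone, 1487 were higher and 4411 lower (25.2% higher), and the median of all genes moved by -0.43. Since both comparisons share the healthy libraries, their values are set side by side without a test between them. The cytokine list had a median of 3.49 with combined treatment and 3.97 with NaCl, and the interferon list 2.19 and 1.73. The proteasome list stood at 0.68 with combined treatment and 0.65 with NaCl, type I cells at -1.34 and -1.47, and endothelium at -0.65 and -0.48. With TMM scaling the medians lay more than 1 apart for 7 lists, 6 of them nearer to healthy with combined treatment. These were neutrophil markers (1.40 with combined treatment, 4.23 with NaCl), immediate early genes (1.22 and 2.87), resolution and repair (1.41 and 2.51), NF-kB feedback (1.14 and 2.23), coagulation (0.83 and 1.87) and heat shock (0.19 and 1.21). The seventh, complement, was farther from healthy with combined treatment (1.17 and 0.05). Which lists lay more than 1 apart depended on the scaling. Total-read scaling moved the median of all genes by only -0.06 for combined treatment against healthy. In the direct test against NaCl it moved the list median from -1.29 to -0.93 for NF-kB feedback. For fatty acid oxidation that median moved from 0.80 to 1.17.

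**Figure D5:**
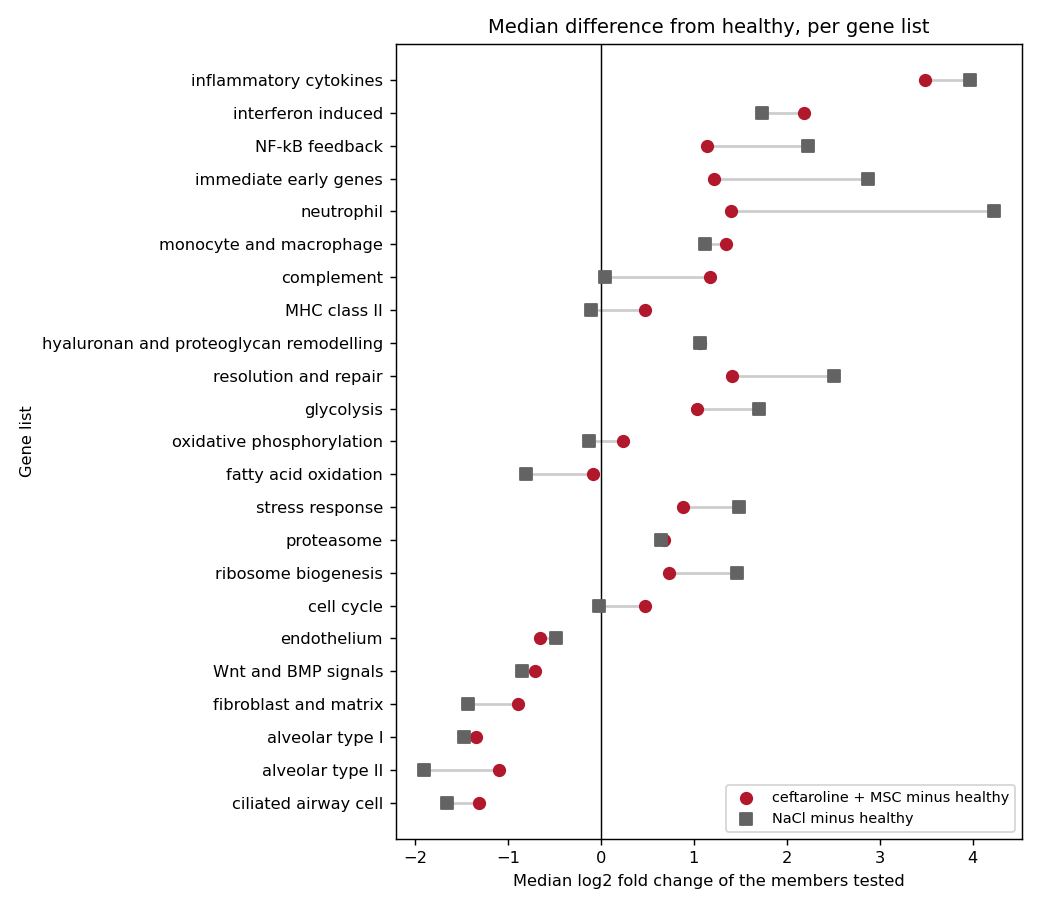
Median log2 fold change of 23 gene lists, for combined treatment minus healthy (circles) and NaCl minus healthy (squares), both against the same 7 healthy lungs. The neutrophil list lies at 1.40 with combined treatment and 4.23 with NaCl, while the proteasome list lies at 0.68 and 0.65.

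The direct test of combined treatment against NaCl called 2658 of 9704 genes (27.4%), 1534 higher (15.8%) and 1124 lower (11.6%). This split depended on scaling. With libraries scaled by their total reads alone the median of all genes moved by 0.36 and 89.4% of the calls were higher (3019 against 357), and with DESeq2 size factors 49.9% were. Counts under total-read scaling are therefore given beside those of TMM scaling. Neutrophil markers were lower in 6 of 9 cases and higher in 1 under both, and CAMP fell by 5.57 (SE 0.86; adjusted p = 0.00141), LTF by 4.41 and S100A8 by 2.79. CAMP was at 58.5 to 2998 normalized reads in combined-treatment lungs and 6951 to 41699 in NaCl lungs, without overlap. Of the 15 cytokines also tested against healthy 4 were lower and none higher (4 and 2 under total-read scaling). CXCL8 fell by 4.45 (SE 0.81; adjusted p = 0.00261), and the protease ADAMTS4 by 4.63. IL6, which did not enter the test against healthy, was at 6.75 to 5142 normalized reads against 1824 to 45253 in NaCl lungs. Of the 13 immediate early genes also tested against healthy 11 were lower (10 under total-read scaling), and of 18 ribosome biogenesis genes 16 were (5 under total-read scaling), among them GNL3 (-0.83 ± 0.19, adjusted p = 0.00648). HMOX1 was lower too (-2.55 ± 0.40, adjusted p = 0.00144), as was PECAM1, an adhesion molecule of endothelium and leukocytes (-1.20 ± 0.19, adjusted p = 0.00141).

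Genes higher with combined treatment than with NaCl included metabolic enzymes, class II genes and fibroblast genes. Of 13 fatty acid oxidation genes 9 were higher and 1 lower (12 and 0 under total-read scaling). ACSM3, which activates medium-chain fatty acids, rose by 3.30 ± 0.56 (adjusted p = 0.00191), and it reached 244 normalized reads with combined treatment, against at most 17.0 with NaCl and 150 to 391 in healthy lungs. Oxidative phosphorylation genes were higher in 9 of 20 cases and lower in 1 (17 and 0 under total-read scaling), and cell cycle genes in 9 of 19 (11), with MCM2 at 1.35 ± 0.26 (adjusted p = 0.00323). In the class II list 5 of 9 were higher (6), with CIITA at 1.69 ± 0.31 (adjusted p = 0.00263) and RLA-DMB at 1.59 ± 0.36 (adjusted p = 0.00648). Both also lay above healthy lung, while CIITA did not pass the test between NaCl and healthy (-0.46, adjusted p = 0.174). Complement was higher in 4 of 11 cases (8), with C6, of the pore complex, at 2.93 ± 0.41 (adjusted p = 0.00103). Of 13 fibroblast genes 6 were higher (6), with COL3A1 at 2.19 ± 0.32 (adjusted p = 0.00105) and FGF10 at 1.70 ± 0.35 (adjusted p = 0.00429). Of 11 smooth muscle and pericyte genes only 1 was higher (1), beside 15.8% of all genes tested. That gene was PDGFRB, a pericyte receptor (1.70 ± 0.23, adjusted p = 0.00103). Other large rises, named for their size in this same test, were the gut peptide gene PYY (3.32), GSG1 (3.18) and DMRTB1 (3.09). Their levels with NaCl are not given, and they too may have entered the test through the combined-treatment lungs. By contrast no interferon, type I, type II or ciliated cell gene passed (under total-read scaling 2 interferon genes and 1 type II gene were higher), and of 22 proteasome genes 1 was lower and none higher (0 and 8).

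Against ceftaroline alone, 16 of 9697 genes passed (0.165%), 14 higher and 2 lower with combined treatment, and 1112 had an unadjusted p under 0.05. On the whole reads edgeR called 11 genes and DESeq2 98. No member of the gene lists was among the 16. SEC62, of the channel that passes proteins into the endoplasmic reticulum, named like the genes after it once its value had been seen, was at 877, 798, 1114, 842, 943, 1003 and 827 normalized reads in combined-treatment lungs and 410 to 557 with ceftaroline alone (0.94 ± 0.10, adjusted p = 0.00239). In healthy lungs it was at 1000 to 1672, and with NaCl at 454 to 851. IL18R1, a chain of the IL-18 receptor, was at 37.7 to 70.1 against 95.0 to 125 (-1.08 ± 0.16, adjusted p = 0.0284), above the 16.9 to 41.8 of healthy lungs in 5 of 7 lungs (1.08 ± 0.24, adjusted p = 0.00425). The others with a symbol were ZDHHC24 (1.10), BOLA1 (0.55), FBXL15 (0.90), POMC (1.36), C11orf68 (0.75) and SAYSD1 (0.56). The count was 2 without any 1 of combined-treatment lungs 1, 2, 4, 5 and 6 or ceftaroline lungs 2, 3 and 5. It was 3 to 6 without any 1 of the others except combined-treatment lung 7, without which it was 15.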

How the data were processed

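Lung RNA of 35 rabbits was sequenced by the authors as 75 bp single reads from a stranded mRNA kit on a NextSeq500, per the labels' protocols. They used bcl2fastq2 2.18.12 and Cutadapt 1.15, keeping reads over 10 bp, per the labels' protocols, and TopHat2 2.1.1, featureCounts 1.5.2 and DESeq2 1.24.0, per the submitters' processing notes. The sources used here name no genome build. The deposited signal values are gene counts divided by a size factor per library. The deposited tables also hold the authors' log2 fold changes, test scores and p-values, which were not used for the results.

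Whole reads were recovered by dividing each library by its smallest nonzero value, and 100% of 646257 nonzero values were whole within a relative tolerance of 1e-06. Libraries were scaled jointly (TMM, edgeR 4.0.16). Genes with at least 10 normalized reads in at least 7 of 14 libraries were tested on log2(normalized reads + 1), a scale that understates changes of low genes, with limma 3.58.1 (trend, two-sided, R 4.3.3), with Benjamini-Hochberg adjustment over all genes tested and a threshold of 0.05. Groups came from the labels, which the series design gives as 7 rabbits each, so p-values measure the spread between these animals. Depth was 7567008 to 33209729 reads. Alternatives were other scalings, filters, thresholds, edgeR and DESeq2 1.42.0 on the whole reads, thinning to equal depth, the library title endings and leaving out each library. Distances were compared by exact permutation tests in R, and figures drawn with Python 3.11.15 and matplotlib 3.10.9.

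Genes named are the 12 largest rises and 12 largest falls against healthy (passed, with a symbol, mean of at least 50 normalized reads, no overlap), 5 and 5 against NaCl, up to 2 members with the lowest p of each of 46 gene lists and a panel of 25 genes, with further list members as values. Some genes that this rule names are not reported here. The comparison and the lists were chosen with earlier results of these data known.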

Additional observations from a re-analysis of the deposited data

Results flagged for a closer look

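Among 402 sets of 7 values looked at, 24 held 1 lung far from the other 6 of its group, meaning a gap to the nearest lung that, as a share of the group's range, passed Dixon's limit for 7 values. Chance alone marks about 1 in 20 such sets. In the combined-treatment group, lung 2 had the lowest IL13RA2 value, 193 normalized reads where the next lung had 538, and lung 5 the highest MCM6 value, 1196 where the next had 734.

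The remaining 22 sets were of healthy lungs. Healthy lung 6 had the lowest values of OAS2 (72.8 normalized reads), CIITA (321), CSF1R (262), CCR7 (70.3), MDH2 (1701), MCM2 (48.9) and BAK1 (1536), and the highest of XDH (125). Its list medians, as log2 differences from the healthy mean, stood apart for MHC class II (-0.75), ion transport (-0.14), B and plasma cells (-2.56) and mitochondrial quality control (0.31). Healthy lung 7 had the highest values of MARCO (1140), CAMP (1265) and LTF (754), and the highest list medians for complement (0.68), ribosome biogenesis (0.23) and neutrophils (1.66). Healthy lung 3 had the highest CXCL10 value (195) and the lowest CXCL8 value (46.1), healthy lung 5 the highest TNFAIP3 value (81.3) and healthy lung 2 the lowest CA2 value (752). Healthy lung 6 is the one whose title ends in PG. The part of that ending in its values was not tested.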

How the results depend on the processing

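No called fold change of a gene named here and no difference in distance changed sign under the alternatives run, but the split of calls between higher and lower and the T and NK cell and B and plasma cell medians did, as given with those results. The count of 4099 genes between combined treatment and healthy was 2041 at an adjusted p under 0.01, 1656 at a log2 fold change of at least 1, and 79 with only the libraries that lack a title ending. That last fit has 2 healthy lungs. Over all comparisons, 167 of the gene results followed were called, each gene counted once per comparison. Of these, 143 lost their call when only libraries that lack a title ending were used. With those 2 healthy lungs, the distance from healthy was 0.47 higher in combined-treatment lungs (exact permutation p = 0.139, against 0.51 and p = 0.00524 with all lungs). The spread within the group was 0.16 higher (exact permutation p = 0.222, against 0.22 and p = 0.00583). NaCl against healthy gave 3500 genes at a log2 fold change of at least 1 and 3650 without title endings. Combined treatment against NaCl gave 1074 at an adjusted p under 0.01 and 1037 at a log2 fold change of at least 1. Combined treatment against ceftaroline gave 8 genes with TMM over those 2 groups, 4 with DESeq2 size factors, 4 with no filter on low values, 10 at a mean of at least 50, 2 at an adjusted p under 0.01, 8 at a log2 fold change of at least 1, 98 with DESeq2 and 6 after thinning to equal depth. The cause of these differences was not tested. With 1 library left out, the counts ran from 3225 to 4618 against healthy, 5535 to 5888 for NaCl against healthy, 1957 to 2941 against NaCl and 2 to 15 against ceftaroline. The distance then ran from 0.43 to 0.60 and the spread from 0.19 to 0.27. No paired analysis was possible because the replicate numbers here follow accession order, and the numbers in the titles recur within a group and so name no pairs.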
